A study of Homo sapiens with 24 samples.

Results

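This report describes 11 of the 24 RNA sequencing libraries of the study: the 7 lines grown out from metastases of C-Raf-overexpressing RWPE-1 cells and the 4 libraries of the C-Raf cells before injection, called parental. They were taken by their labels and by the 2 count tables that hold them, and the count table was a term of the model. RWPE-1 is an immortalized, non-tumorigenic human prostate epithelial line carrying human papillomavirus 18 genes, and it was grown in serum-free keratinocyte medium with bovine pituitary extract and EGF. All 11 libraries carry C-Raf driven by the ubiquitin promoter. The parental cells went into immunodeficient NSG mice by intracardiac injection, and visible tumors were resected and put into culture to give lines named after their site: LN1A and LN1B from lymph node, Spine and Spine2 from spine, and Bone4, Bone5 and Bone6 from bone. Parental 1, LN1A, LN1B and Spine stand in the first count table with the single RWPE-1 vector control, whose level is given beside some genes as background, with no test. Parental 2, 3 and 4, Spine2, Bone4, Bone5 and Bone6 stand in the second. Each line is 1 library, the sources used here do not say which lines share an animal, and they do not say whether the parental libraries are separate cultures, so p-values measure only the spread between these libraries. Summed counts ran from 33876044 to 37635831 in the parental libraries and from 33615679 to 43037870 in the lines.

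C-Raf is a kinase of the cascade from RAS through MEK to ERK, which in epithelial cells raises growth factor ligands such as amphiregulin and its own inhibitors. Epithelial cells hold together through E-cadherin, catenins, desmosomes and claudins, and transcription factors of the ZEB and SNAIL families repress several of these genes during epithelial-mesenchymal transition, when vimentin and matrix proteins are made.

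By the human genes measured, the cultures were epithelial. The summed level of 8 epithelial markers was between 5630 and 11500 CPM, the counts of a gene relative to the size of its library after TMM scaling, in the parental libraries and between 4480 and 9670 CPM in the lines, and none of the 8 was under 1 CPM in all 11 libraries. Luminal prostate markers were mostly absent: KLK2, KLK3, TMPRSS2, ACPP and MSMB were under 1 CPM in every library, with KLK2, KLK3 and MSMB at 0. All 8 endothelial markers and 7 of 8 blood markers were under 1 CPM, as were 6 of 8 osteoblast markers, with IBSP and SP7 at 0. Only human genes were counted and the tumors grew in mice, so these markers cannot show whether mouse cells were present. The parental libraries were not alike. Parental 3 and parental 4 were the closest pair of the 11, with 108 genes at least 2-fold apart, whereas parental 1 and parental 3 had 1572 such genes. Of the spread over all tested genes, the count table alone took 21.7% and the stage (parental or line) alone 15%.

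To find what the metastasis-derived lines had in common, their levels were compared with the parental levels over 13166 protein-coding genes by the quasi-likelihood test of edgeR, with p-values adjusted by Benjamini-Hochberg. Few genes passed: 14 genes, or 0.106% of those tested, had an adjusted p under 0.05, of which 11 were higher in the lines (0.0835%) and 3 lower (0.0228%). A calcium channel regulator, a collagen chain and the endothelin A receptor rose in all 7 lines, and a neuronal transmembrane protein, a guidance receptor and a muscle-type kinase fell in all 7. At an unadjusted p under 0.05 there were 633 genes higher (4.81%) and 580 lower (4.41%), and the median log2 difference over all genes was 0.01. The count of 14 depends on single libraries: it ranged from 4 without parental 3 to 67 without Bone4, and DESeq2 with the same terms called 251 genes. CRACR2A, COL9A3, SLITRK4 and ROBO2 passed in each of the 11 fits that left out 1 library. The other 10 genes lost their call without parental 3, where their edgeR adjusted p-values ran from 0.0726 for SYT14 to 0.16 for FOXL1. Of the 11 fits, SPEG and MAB21L1 passed in 3, FOXL1 and GAS2L1 in 5, PPM1H, VAX1, MXRA7 and EDNRA in 6, C14orf159 in 8 and SYT14 in 9. ROBO2 lost its call when parental 3 and parental 4 were both left out. COL9A3, SLITRK4 and ROBO2 did not pass in a fit of the second table only.

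CRACR2A, which regulates store-operated calcium entry, was the gene with the smallest p. Its level was 5.52, 7.10, 7.02 and 6.58 CPM in parental 1 to 4. In the 7 lines it ran from 15.3 CPM in LN1A over a median of 21.5 to 23.7 CPM in Spine2, so that the groups lay far apart, and the vector control held 0.954 CPM. The difference was 1.69 ± 0.10 on the log2 scale (SE of the fit, lines minus parental; edgeR adjusted p = 5.55e-05), with 1.72 within the first table and 1.66 within the second. COL9A3, a chain of the cartilage-type collagen IX, stood at 0.728, 0.680, 1.27 and 1.5 CPM in parental 1 to 4 and at 4.10 to 7.27 CPM in the lines, with a median of 4.55 CPM. Every line was above every parental library, and the log2 difference was 2.34 ± 0.26 (SE; edgeR adjusted p = 0.00697). EDNRA, the endothelin A receptor, was listed at 0 in the vector control, at 0.576, 1.39, 1.05 and 0.981 CPM in parental 1 to 4, and at 3.20 to 5.78 CPM in the lines around a median of 3.66 CPM. Its log2 difference was 2.0 ± 0.27 (SE; edgeR adjusted p = 0.0232).

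Transcription factors and cytoskeletal genes were among the other genes that rose. C14orf159, now called DGLUCY and coding for a mitochondrial D-glutamate cyclase, had 2.55, 4.73, 4.84 and 5.37 CPM in the parental libraries and 9.39 to 19.7 CPM in the lines, highest in Bone4 (log2 difference 1.64, edgeR adjusted p = 0.0156). The homeobox gene VAX1 had 1.01 to 1.70 CPM in the parental libraries and 3.10 to 6.39 CPM in the lines (log2 1.65, edgeR adjusted p = 0.0232). The forkhead gene FOXL1 had 6.79 to 9.61 CPM against 11.7 to 18.1 CPM (log2 0.94, edgeR adjusted p = 0.036). GAS2L1, which links actin to microtubules, rose by 0.67 and MXRA7, a membrane protein linked to matrix remodeling, by 0.69 on the log2 scale. SYT14, a synaptotagmin-like gene, also passed (log2 4.36, edgeR adjusted p = 0.0147), but not with no table term (adjusted p = 0.249). Its parental levels were 0.0607, 0.163, 0.481 and 0.318 CPM, and the lines ran from 0.420 CPM in LN1A, inside the parental range, to 9.87 CPM in Bone4. PPM1H and MAB21L1 also passed, with means under 1 CPM, and PPM1H was above the parental range in 6 lines only and did not pass with no table term (edgeR adjusted p = 0.297).

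The 3 genes that fell did so in every line. SLITRK4, a transmembrane protein best known from neurons, had 5.70, 4.05, 3.14 and 2.97 CPM in parental 1 to 4 and 6.65 CPM in the vector control. The lines held from 0 CPM in Bone6 to 0.342 CPM in Spine, with a median of 0.0916 CPM. Summed over libraries, 551 counts in the 4 parental libraries stood against 29 counts in the 7 lines, a level 37.3-fold lower with an exact 95% counting interval of 25.7 to 56.2 that covers counting error only (edgeR adjusted p = 0.00376). ROBO2, a receptor for SLIT guidance proteins, had 0.381 to 0.837 CPM in the parental libraries, 0.0308 CPM in the vector control, and 2 counts in all 7 lines together. That is a level 76.5-fold lower with a counting interval of 20.5 to 643 (edgeR adjusted p = 0.00613). SPEG, a kinase of striated muscle, had 41.5, 33.7, 36.7 and 40.5 CPM in parental 1 to 4 and 21.6 to 28.8 CPM in the lines (log2 -0.59, edgeR adjusted p = 0.0377).

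**Figure D1:**
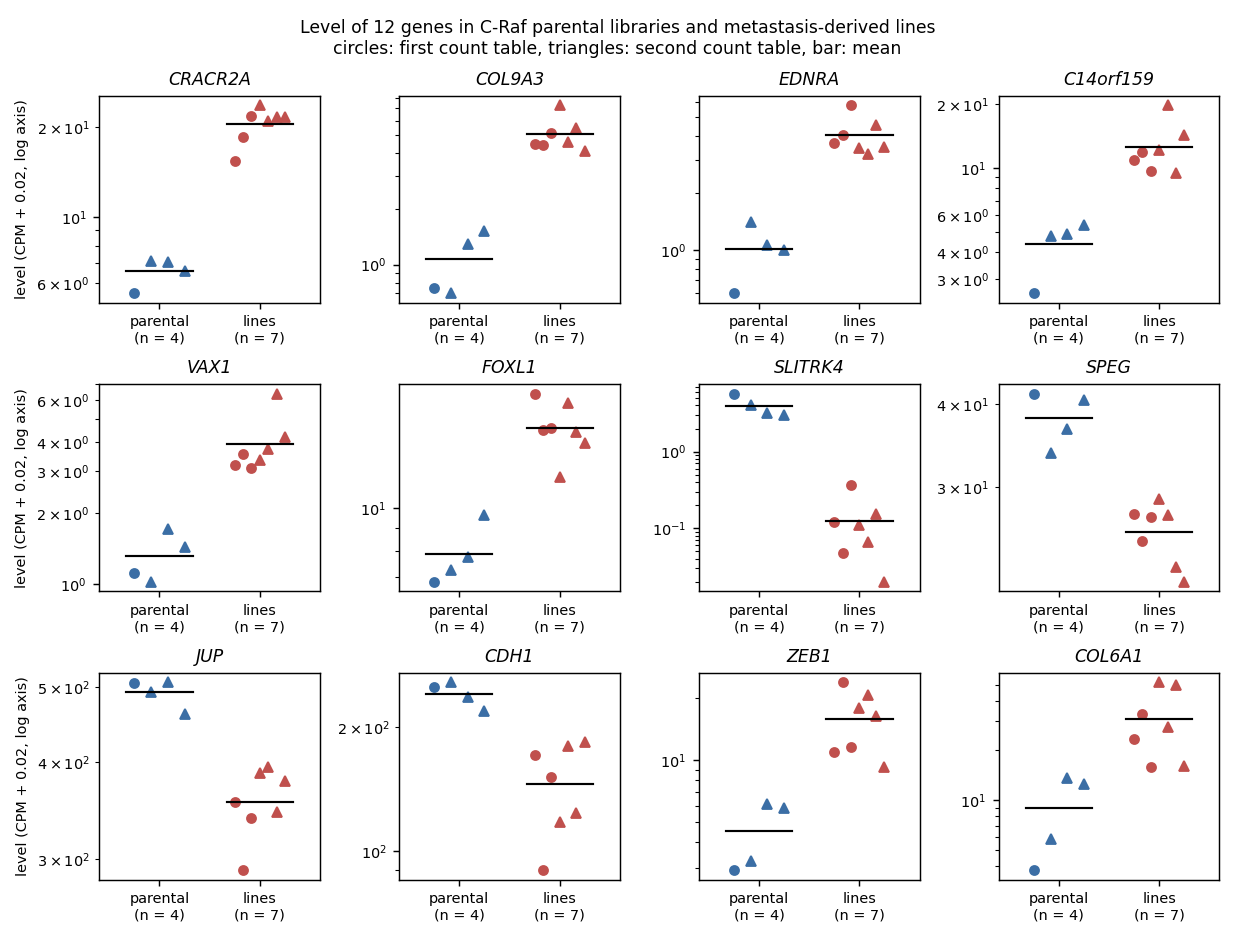
Level of 12 genes in CPM on a log axis in the 4 parental libraries and the 7 metastasis-derived lines, each point 1 library, with circles for the first and triangles for the second count table and a bar at the mean. CRACR2A lies between 5.52 and 7.10 CPM in the parental libraries and between 15.3 and 23.7 CPM in the lines; JUP, CDH1, ZEB1 and COL6A1 did not pass the edgeR test although their groups do not overlap.

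The test asks for a common mean shift, so the lines were also placed 1 by 1 against the range of the 4 parental libraries, as a description. All 7 lines were above every parental library for 100 genes (0.76%) and below every parental library for 125 genes (0.949%). Far more genes were beyond the range in few lines: 3351 genes lay above it in exactly 1 line and 3491 below it in exactly 1. With a distance of at least 2-fold from the nearest parental library, the counts went from 313 genes above and 356 below in 1 line down to 4 above (0.0304%) and 4 below (0.0304%) in all 7. The 4 above were CRACR2A, COL9A3, EDNRA and MAB21L1, and the 4 below were SLITRK4, ROBO2, FAM84A and RPS4Y1, named here after their values were seen. FAM84A, now called LRATD1, had 5.21 to 7.43 CPM in the parental libraries and 0 to 1.59 CPM in the lines (edgeR adjusted p = 0.0623). RPS4Y1, a ribosomal protein gene of the Y chromosome, had 0.303 and 0.381 CPM in parental 1 and 2, 4.36 and 5.17 CPM in parental 3 and 4, and no count in any line, at least 27.7-fold and 34.8-fold lower than parental 1 and 2 and at least 398-fold and 472-fold lower than parental 3 and 4, against a floor of 3 counts over the 7 lines (edgeR adjusted p = 0.143). The other 10 of 11 Y-linked genes listed were under 1 CPM in all libraries.

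**Figure D2:**
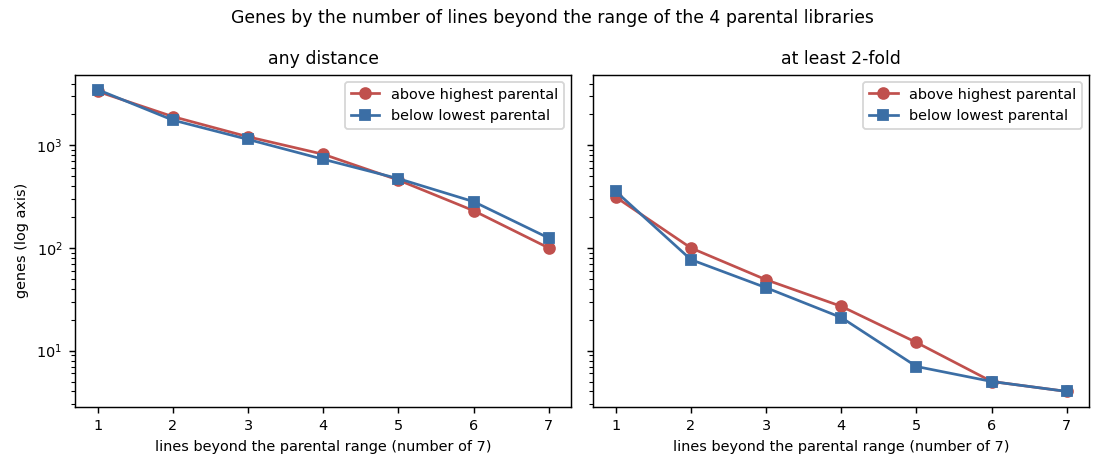
Number of genes, on a log axis, by how many of the 7 lines lie above the highest or below the lowest of the 4 parental libraries, at any distance (left) and at least 2-fold away (right). The left curves fall from 3351 and 3491 genes in 1 line to 100 and 125 in all 7, and the right curves from 313 and 356 to 4 and 4.

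Many genes of epithelial junctions stood lower in the lines than in the parental libraries, although no single member passed the adjusted test of edgeR. DESeq2 called 4 of them lower, CDH1, CLDN4, JUP and ST14, beside 0.919% of all genes. Without Bone4, edgeR called JUP, beside 0.511% of all genes in either direction. Of 20 members tested, 11 had lower levels at an unadjusted p under 0.05, beside 4.41% of all genes, and 0 had higher levels. This list and those below were chosen with earlier results of these data known. Their shares beside all genes are therefore a description and not independent support. The median log2 difference of the list was -0.43 against 0.01 for all genes, with -0.665 within the first table and -0.248 within the second. The 6 of 20 members below all parental libraries in all 7 lines, beside 0.949% of all genes, were JUP, CLDN4, ST14, CDH1, CLDN7 and CTNND1. In bulk libraries such as these, fewer cells of a type and less RNA per cell cannot be told apart.

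JUP, or plakoglobin, which links cadherins to the cytoskeleton in adherens junctions and desmosomes, had the smallest p of the list. Its levels were 507, 493, 507 and 462 CPM in parental 1 to 4 and 555 CPM in the vector control. The lines ran from 290 CPM in LN1B over a median of 356 CPM to 394 CPM in Bone4, with a log2 difference of -0.45 ± 0.08 (SE; edgeR adjusted p = 0.0667). CDH1, which codes for E-cadherin, had 250, 258, 236 and 219 CPM in the parental libraries and 89.8 to 184 CPM in the lines, lowest in LN1B and highest in Bone6 (log2 -0.72, edgeR adjusted p = 0.188). The tight junction proteins CLDN4 and CLDN7 had log2 differences of -1.23 and -0.80 (edgeR adjusted p = 0.129 and 0.306). CLDN7 stood at 72.4 to 81.6 CPM in the parental libraries and at 24.5 CPM in Bone5 and 64.0 CPM in Spine, the lowest and highest lines. ST14, the membrane protease matriptase, had 119 to 125 CPM against 66.8 to 111 CPM. CTNND1, or p120-catenin, differed little in size, with 377 to 397 CPM against 326 to 373 CPM.

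The transcription and splicing factors that keep the epithelial program were below the parental range in some lines only. GRHL2 had 64.8, 43.9, 24.2 and 22.1 CPM in parental 1 to 4, and OVOL2 had 6.01, 4.81, 2.24 and 2.34 CPM, so that parental 3 and 4 were themselves close to the lines. GRHL2 was below the parental range in 4 lines and OVOL2 in 5. The splicing factor ESRP1 was below it in 6 lines, from 55.5 CPM in LN1B to 125 CPM in Bone4 against 116 to 158 CPM. LN1B had the lowest level of all 7 lines for JUP, CDH1, ST14, GRHL2, OVOL2 and ESRP1. Members of the list that showed no such difference include TJP1, DSP, ESRP2 and GRHL1, with log2 differences of 0.01, -0.07, 0.00057 and 0.05, and CLDN1 had 0.83. Outside the list, and chosen after the values were seen, the polarity genes CRB3 and LLGL2, the cingulin gene CGN, the junction protein F11R, the protease PRSS8, its inhibitor SPINT1 and the surface glycoprotein CD24 were also below all parental libraries in all 7 lines. CD24 had 9.15 to 15.8 CPM in the parental libraries and 2.93 to 7.31 CPM in the lines (log2 -1.31, edgeR adjusted p = 0.112).

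To show the sequence before the start of such genes, 250 bases upstream are printed for JUP, CLDN7 and CLDN4, the members below the parental range in all 7 lines that have an entry in the RefSeq promoter table (build GRCh38.p14); ST14, CDH1 and CTNND1 have none. Capitals mark CAGGTG on either strand, the E-box form bound by ZEB and SNAIL factors, and TGANTCA, the AP-1 motif, which reads alike on both strands; the motifs do not overlap. JUP and CLDN7 have 2 entries each, and the one shown is the one with a match; the other held neither motif.
JUP, chr17:41785977-41786226, minus strand: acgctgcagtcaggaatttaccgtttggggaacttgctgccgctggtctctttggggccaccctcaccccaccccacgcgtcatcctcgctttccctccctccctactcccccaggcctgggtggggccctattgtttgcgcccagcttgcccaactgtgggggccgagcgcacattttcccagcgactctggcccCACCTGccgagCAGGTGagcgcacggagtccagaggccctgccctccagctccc
CLDN7, chr17:7262479-7262728, minus strand: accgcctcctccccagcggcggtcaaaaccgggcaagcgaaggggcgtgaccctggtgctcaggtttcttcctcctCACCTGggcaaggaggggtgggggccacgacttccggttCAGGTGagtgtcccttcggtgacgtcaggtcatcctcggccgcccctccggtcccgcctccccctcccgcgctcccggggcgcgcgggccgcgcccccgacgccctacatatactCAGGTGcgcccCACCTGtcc
CLDN4, chr7:73830746-73830995, plus strand: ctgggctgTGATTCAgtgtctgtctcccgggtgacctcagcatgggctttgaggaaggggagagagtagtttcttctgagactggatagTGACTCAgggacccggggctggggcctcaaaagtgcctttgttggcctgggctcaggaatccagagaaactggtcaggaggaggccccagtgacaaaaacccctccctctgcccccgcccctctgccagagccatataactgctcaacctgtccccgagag
The JUP window holds 2 E-boxes, the CLDN7 window 4, and the CLDN4 window 2 AP-1 motifs. Among all tested genes with an entry, 21.3% (2161 of 10148) held CAGGTG in at least 1 window of this length, against 36.7% (36 of 98) of genes below the parental range in all 7 lines and 25.3% (20 of 79) of genes above it in all 7. The AP-1 motif was held by 6.3%, 5.1% and 3.8%. A match is a stretch of letters and was not tested for binding.

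Some mesenchymal genes had higher levels in the lines, but none passed the adjusted test of edgeR. DESeq2 called 5, beside 1.91% of all genes: ZEB1, COL6A1, COL6A2 and the gelatinase MMP2, which were higher, and TPM1, which was lower. Without Bone6, edgeR called ZEB1 and COL6A1, beside 0.252% of all genes. Of 23 members tested, 5 were higher (21.7%, beside 4.81% of all genes) and 2 lower (8.7%, beside 4.41%) at an unadjusted p under 0.05, and the median log2 difference was 0.28, with 0.868 within the first table and 0.00205 within the second. ZEB1, a repressor of E-cadherin, had 2.91, 3.24, 6.11 and 5.83 CPM in parental 1 to 4 and 0.400 CPM in the vector control. All 7 lines were higher, from 9.23 CPM in Bone6 over a median of 16.5 CPM to 24.0 CPM in LN1B (log2 1.87 ± 0.33, SE; edgeR adjusted p = 0.0663), and 2.29 and 1.65 were the differences within the tables. The collagen VI chain COL6A1 had 3.73, 5.79, 13.5 and 12.4 CPM in the parental libraries and 15.8 to 51.8 CPM in the lines (log2 2.02, edgeR adjusted p = 0.091). COL6A2 ran from 2.70 to 17.0 CPM in the parental libraries and up to 107 CPM in Spine2, with Spine at 14.7 CPM inside the parental range. VIM, the intermediate filament vimentin, had 900, 1210, 1200 and 1160 CPM against 1170 to 2200 CPM and 295 CPM in the vector control (log2 0.55, edgeR adjusted p = 0.314).

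Of the remaining factors of the transition, ZEB2 was above the parental range in 6 lines. It had 1.27, 1.30, 4.98 and 4.71 CPM in the parental libraries and 2.05 to 15.1 CPM in the lines, with Bone6 inside the range and LN1B highest (log2 1.15, edgeR adjusted p = 0.600), and the differences within the tables were 2.85 and 0.65. The log2 differences of SNAI1, SNAI2 and TWIST2 were 0.03, -0.03 and 0.01. TPM1, an actin-binding tropomyosin, and TNC, the matrix protein tenascin C, had log2 differences of -0.55 and -0.99 (edgeR adjusted p = 0.0767 and 0.369). TNC depended on the parental library: 0.271 within the first table and -1.36 within the second. The summed level of 8 fibroblast markers was 9.4 to 22.3 CPM in the parental libraries and 12.5 to 63.3 CPM in the lines, with COL1A2, LUM, PDGFRA and PDGFRB under 1 CPM in all 11. The other 4 were highest in Bone5: 30.25 CPM of COL1A1 against 9.373 to 21.88 CPM in the parental libraries, 22.14 CPM of COL3A1 against at most 0.0849 CPM, 7.416 CPM of DCN against at most 0.5943 CPM, and 2.454 CPM of POSTN, which had no parental count. Without Bone5 the log2 differences of ZEB1, COL6A1, COL6A2 and VIM were 1.89, 1.90, 2.65 and 0.57, with edgeR adjusted p-values of 0.146, 0.202, 0.182 and 0.467.

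**Figure D3:**
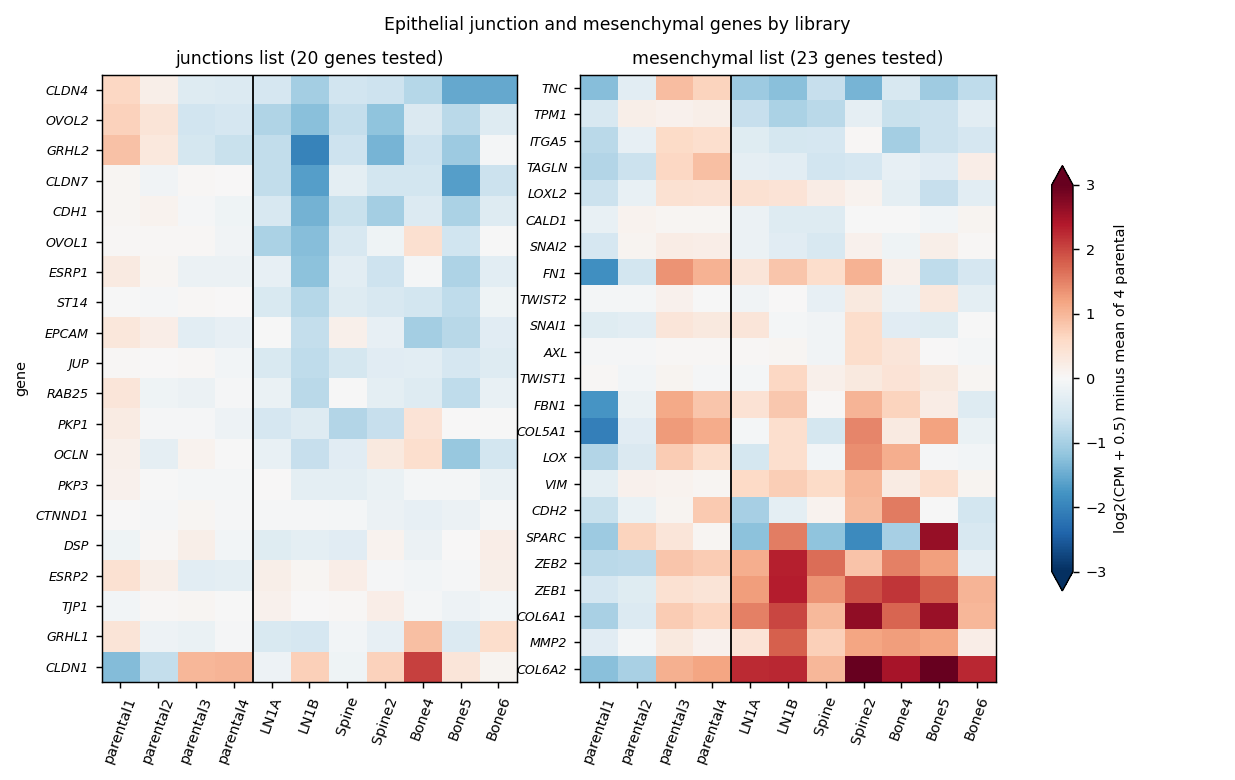
Heat map of log2(CPM + 0.5) minus the mean of the 4 parental libraries for the 20 junction and 23 mesenchymal genes tested, 1 column per library and a line between parental libraries and lines, with colors limited to 3 on either side. JUP, CLDN4, ST14, CDH1, CLDN7 and CTNND1 are below the parental range in all 7 lines, and ZEB1 and COL6A1 above it in all 7.

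No gene of ERK output passed the adjusted test of edgeR with all 11 libraries. DESeq2 called 1 higher, AREG, beside 0.987% of all genes. Without Bone4, edgeR called AREG, beside 0.511% of all genes in either direction. Without both parental 3 and parental 4, it called EMP1, beside 0.0373%. Of 27 genes, 4 were higher at an unadjusted p under 0.05 (14.8%, beside 4.81% of all genes) and 0 lower, and the median log2 difference was 0.0921, with 0.202 within the first table and 0.014 within the second. The 4 were the EGFR ligands AREG and EREG, the phosphatase DUSP5 and the receptor EPHA4. AREG, amphiregulin, had 160, 233, 178 and 178 CPM in parental 1 to 4 and 79.9 CPM in the vector control, and 265 to 436 CPM in the lines, all above the parental range (log2 0.81 ± 0.15, SE; edgeR adjusted p = 0.0734). EREG, epiregulin, had 160 to 170 CPM in the parental libraries and up to 409 CPM in LN1B, but 148 CPM in Spine2. The feedback genes DUSP6 and SPRY2 had log2 differences of 0.11 and -0.17. None of 19 tested members of the RAF and ERK cascade list had an unadjusted p under 0.05 with edgeR, and DESeq2 called 0.

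Among 14 other lists, no member passed the adjusted test of edgeR with all 11 libraries. DESeq2 called 8 of their members, beside 1.91% of all genes: LY6D, KRT23, SERPINE2, MMP2, ENPP1, SNRPN, TGFB2 and IL6. EdgeR called SNRPN without Bone4, beside 0.511% of all genes, and without Bone6, beside 0.252%. The medians of these lists lay between -0.219 and 0.253 in the joint fit, but in 9 of the 14 the medians within the tables were of unlike sign. They were, in the first and then the second table, -0.667 and 0.242 for squamous differentiation, 0.587 and -0.292 for proteases and their inhibitors, 0.596 and -0.178 for MHC, 0.774 and -0.0194 for p53 targets, 2.55 and -0.61 for cytokines, 0.178 and -0.16 for TGF-beta targets, 0.182 and -0.0378 for Notch, -0.208 and 0.102 for cell cycle, and -0.0162 and 0.00732 for imprinted genes. LY6D, a basal and squamous surface protein, was above the parental range in all 7 lines, with 0.354 to 1.16 CPM against 1.26 to 7.87 CPM (log2 2.33, edgeR adjusted p = 0.211). KRT23 had 11 CPM in LN1B against 0.0816 to 0.303 CPM in the parental libraries. SERPINE2, an inhibitor of serine proteases, had 67.5 to 76.9 CPM in the parental libraries and 90.7 to 284 CPM in the lines (log2 1.02, edgeR adjusted p = 0.308). Of 15 tested genes of bone metastasis, 3 were higher at an unadjusted p under 0.05, beside 4.81% of all genes: TNFRSF11B, or osteoprotegerin, the pyrophosphate-making enzyme ENPP1, and the BMP antagonist GREM1. TNFRSF11B was above the parental range in all 7 lines, including those from lymph node, with 0.837 to 1.22 CPM against 1.27 to 2.32 CPM. The imprinted gene SNRPN, whose reads cannot be parted here from its overlapping partner SNURF, had 0.364, 0.734, 1.42 and 1.82 CPM in parental 1 to 4, 0 CPM in 5 lines and at most 0.247 CPM (edgeR adjusted p = 0.0663). The basal keratins KRT5 and KRT14 had log2 differences of -0.31 and -0.26 that turned to 0.76 and 0.36 without parental 1. Beside 4.81% higher and 4.41% lower among all genes, the counts of lists at an unadjusted p under 0.05, higher and then lower, were 0 and 2 of 18 for basal epithelium, 3 and 1 of 23 for squamous differentiation, 1 and 1 of 13 for imprinted genes, 2 and 3 of 22 for TGF-beta targets, 2 and 0 of 17 for Notch, 1 and 1 of 28 for cell cycle, 1 and 0 of 25 for hypoxia and glycolysis, 0 and 2 of 24 for cholesterol, 1 and 1 of 27 for stress response, 2 and 0 of 18 for p53 targets, 1 and 0 of 19 for MHC, 3 and 0 of 22 for cytokines, and 3 and 0 of 21 for proteases and their inhibitors.

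Interferon-stimulated genes ranged widely among the parental libraries. None of 28 had an unadjusted p under 0.05 with edgeR, DESeq2 called 0, and the median log2 difference was -0.471 in the joint fit, 1.38 within the first table and -0.55 within the second. MX1, an antiviral GTPase, had 6.64 and 22.2 CPM in parental 1 and 2, 744 CPM in each of parental 3 and 4, and 31.8 to 283 CPM in the lines, so that all 7 lines lay inside the parental range. MMP9, a gelatinase, had 0.880, 127, 1390 and 1350 CPM in parental 1 to 4 and 8.86 to 305 CPM in the lines.

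To fill the named genes to 12 in each direction, the genes next in order of p were taken among those with a mean of at least 1 CPM and all 7 lines beyond the parental range; they did not pass the edgeR test, with adjusted p-values from 0.0512 to 0.0835. The 3 higher genes so named were PVRL3, the adhesion protein nectin-3 (9.49 to 15.1 CPM against 21 to 27.3 CPM), the RNA-editing enzyme ADARB1 (38.6 to 41.4 CPM against 48.6 to 67.3 CPM) and the homeobox gene HHEX. The lower ones so named, beside JUP and FAM84A, were ZNF503, PIM1, ZNF185, ACOT11, CYP26B1, B3GNT3, TFCP2L1 and PPP1R13L. CYP26B1, which breaks down retinoic acid, had 10.7, 10.3, 10.4 and 10.7 CPM in the parental libraries and 3.98 to 7.63 CPM in the lines. PIM1, a serine/threonine kinase, had 49.7 to 67.9 CPM against 25.2 to 42.9 CPM. TFCP2L1, of the same family as GRHL2, had 404 CPM in the vector control, 106, 59.7, 54.0 and 52.0 CPM in parental 1 to 4 and 31.5 to 49.0 CPM in the lines.

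To find what single lines carried, each line was compared with the other 6 in the same model. A gene was called carried by 1 line when its adjusted p over all genes and lines was under 0.05, its size at least 1 on the log2 scale, its level outside the range of the other 10 libraries, and it was called in no other line. There were 190 such calls (0.206% of all gene and line pairs). Bone4 carried 136 genes, of which 90 were higher (0.684%) and 46 lower (0.349%), and Spine2 carried 49, of which 13 were higher (0.0987%) and 36 lower (0.273%). Bone6 carried 3, LN1A and Bone5 carried 1 each, and LN1B and Spine carried 0. At an unadjusted edgeR p under 0.05, LN1B had 115 and Spine 116 of 13166 genes. With limma voom, LN1B carried 4 genes. By range, LN1B was the only line at least 2-fold above the parental libraries for 17 genes and below them for 49. For Spine these counts were 9 and 40, and for Bone4 151 and 99. A count of 0 carried genes thus does not show that a line had no change of its own. A line and its 1 library cannot be told apart here.

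**Figure D4:**
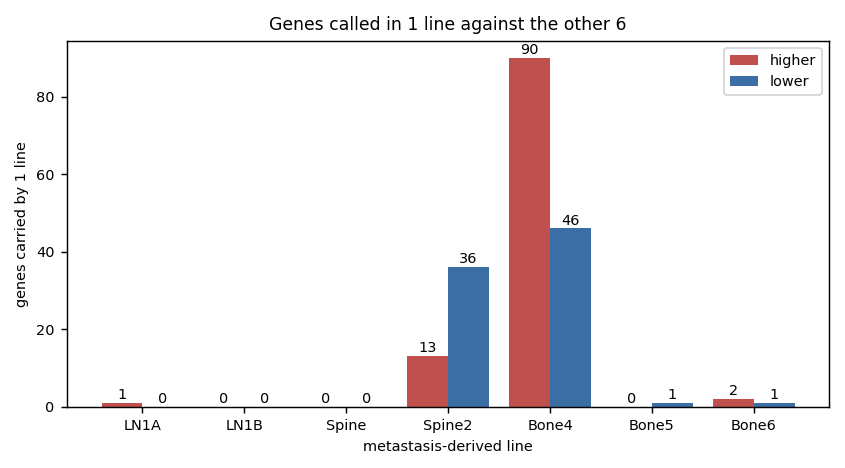
Number of genes carried by 1 line and by no other, higher or lower than in the other 6 lines, for the 7 metastasis-derived lines. Bone4 has 90 higher and 46 lower genes and Spine2 13 and 36, and the remaining lines have at most 2 in a direction.

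In Bone4, genes of serine and asparagine synthesis and of the amino acid stress response were carried higher and 5 chaperone genes lower, chosen for naming after their values were seen. PSAT1, an enzyme of serine synthesis, had the smallest p of all: 532 CPM in Bone4 against 133 to 160 CPM in the other 10 libraries (log2 1.91 ± 0.09, SE; edgeR adjusted p = 0.000202). The other enzymes of that route, PHGDH and PSPH, stood at 249 CPM against 70.4 to 121 CPM and at 44.3 CPM against 16.5 to 21.9 CPM. ASNS, asparagine synthetase, had 261 CPM against 48.0 to 91.6 CPM. TRIB3 and DDIT3, which are induced by the stress factor ATF4, had 499 CPM against 76.2 to 133 CPM and 84.1 CPM against 8.89 to 19.9 CPM. The cystine transporter SLC7A11, the secreted glycoprotein STC2, the tRNA synthetases AARS and CARS, PCK2 and CEBPG were also carried higher. Of 27 tested members of the stress response list, 6 were carried higher by Bone4 (22.2%, beside 0.684% of all genes) and 2 lower (7.41%, beside 0.349%).

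The 2 lower were HSPA1A and HSPA1B, which code for nearly the same heat shock protein and may share reads. HSPA1A had 110 CPM in Bone4 against 322 to 462 CPM elsewhere. HSPA8, the constitutive chaperone, had 591 CPM against 1600 to 2960 CPM (log2 -2.09, edgeR adjusted p = 0.0112), and DNAJA1 and HSP90AB1 were carried lower as well. HMGCS1 and MSMO1, enzymes of cholesterol synthesis, had 104 CPM against 219 to 357 CPM and 78.3 CPM against 162 to 238 CPM. F3, tissue factor, had 163 CPM against 396 to 667 CPM, and the ERK-induced AP-1 subunit FOSL1 had 92.5 CPM against 191 to 286 CPM. The transcriptional regulators TSC22D3 and ZBTB16 were higher, at 89.5 CPM against 14.6 to 31.6 CPM and 25.4 CPM against 1.36 to 5.38 CPM. Among carried genes with a highest level of at least 2 CPM, the largest rises were those of the amino acid transporter SLC6A20, with 15.7 CPM against 0.212 to 1.04 CPM, and of the cation transporter SLC47A2, with 8.09 CPM against 0.214 to 2.40 CPM. Among the same genes, the largest falls were those of the zinc finger gene ZNF793, with 0.0225 CPM against 1.26 to 5.99 CPM, and of the forkhead gene FOXL2, with 0.180 CPM against 0.576 to 9.71 CPM.

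In Spine2, most of the genes carried lower were on the long arm of chromosome 6. Of the 36, 26 (72.2%) were on chromosome 6, where 5.26% of the tested genes are, and they lay between positions 89568144 and 166906451 (GRCh38, GENCODE annotation). Their median log2 difference was -1.11. They include the forkhead factor FOXO3, with 52.7 CPM in Spine2 against 97.7 to 143 CPM in the other 10 libraries, the Hippo kinase LATS1 with 45.8 CPM against 84.5 to 109 CPM, the DNA polymerase subunit REV3L with 37.2 CPM against 63.1 to 87.2 CPM, and the imprinted receptor IGF2R with 154 CPM against 239 to 340 CPM. PERP, a desmosomal p53 target, had 149 CPM against 280 to 392 CPM. Among those with a highest level of at least 2 CPM, the largest falls were those of PNLDC1, an RNA exonuclease on the same chromosome, with 0.763 CPM against 10.6 to 18.8 CPM, and of the kinase CDK3 on chromosome 17, with 0.0916 CPM against 1.18 to 2.0 CPM. The largest rises were those of QPRT, an enzyme of NAD synthesis, with 3.88 CPM against 0 to 0.422 CPM, and of CCBE1, a secreted factor of lymphatic growth, with 62.4 CPM against 5.34 to 14.3 CPM. The 4 genes of chromosome 6 carried higher were histone genes, HIST1H1C, HIST1H2BD, HIST1H2BJ and HIST1H2BK. HIST1H1C had 46.9 CPM against 4.82 to 11.8 CPM; reads of histone copies may be split between them.

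To follow neighboring genes, the level of each library was set against the median of the other 10 along the chromosomes, for 10426 genes with a mean of at least 5 CPM, as a description added after the values were seen. On chromosome 6 the largest step in Spine2 lay before IRAK1BP1. Of the 318 genes before IRAK1BP1, the median log2 difference was 0.04, and of the 220 genes from IRAK1BP1 (start at 78867472) to the end of the chromosome, 216 were lower and the median was -0.90, a ratio of 0.537, with quartiles at -1.05 and -0.75. MYO6, the last gene before, had 94.83 CPM in Spine2 against 58.89 to 88.92 CPM elsewhere, and IRAK1BP1 had 5.59 CPM against 10.25 to 15.93 CPM. The medians of the other 10 libraries over the same 220 genes were between -0.32, in Bone4, and 0.07. Before that step, 10 of the 11 genes from KIAA1586 to OGFRL1 (57046532 to 71308950) were also lower in Spine2, with a median of -0.38.

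Smaller shifts of whole chromosomes marked other lines. In Bone4, 441 of 538 genes of chromosome 6 were lower, with a median of -0.33, and 210 of 265 genes of chromosome 4 past 50 Mb, with a median of -0.25. HSPA1A, HSPA1B and HSP90AB1 are on chromosome 6 and had log2 differences of -1.875, -1.56 and -1.255 in that line on the same scale. In LN1A, 94 of 102 genes of chromosome 21 were higher, with a median of 0.29, which LN1B did not share (-0.001). In Bone6, 188 of 222 genes of chromosome 22 were higher, with a median of 0.17. The median of every parental library on these chromosomes was between -0.07 and 0.036. Over 25 Mb blocks with at least 20 genes, 10 of 1375 block and library pairs had a median of at least 0.3 in size, 4 in Spine2 and 6 in Bone4. DNA was not analysed here.

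**Figure D5:**
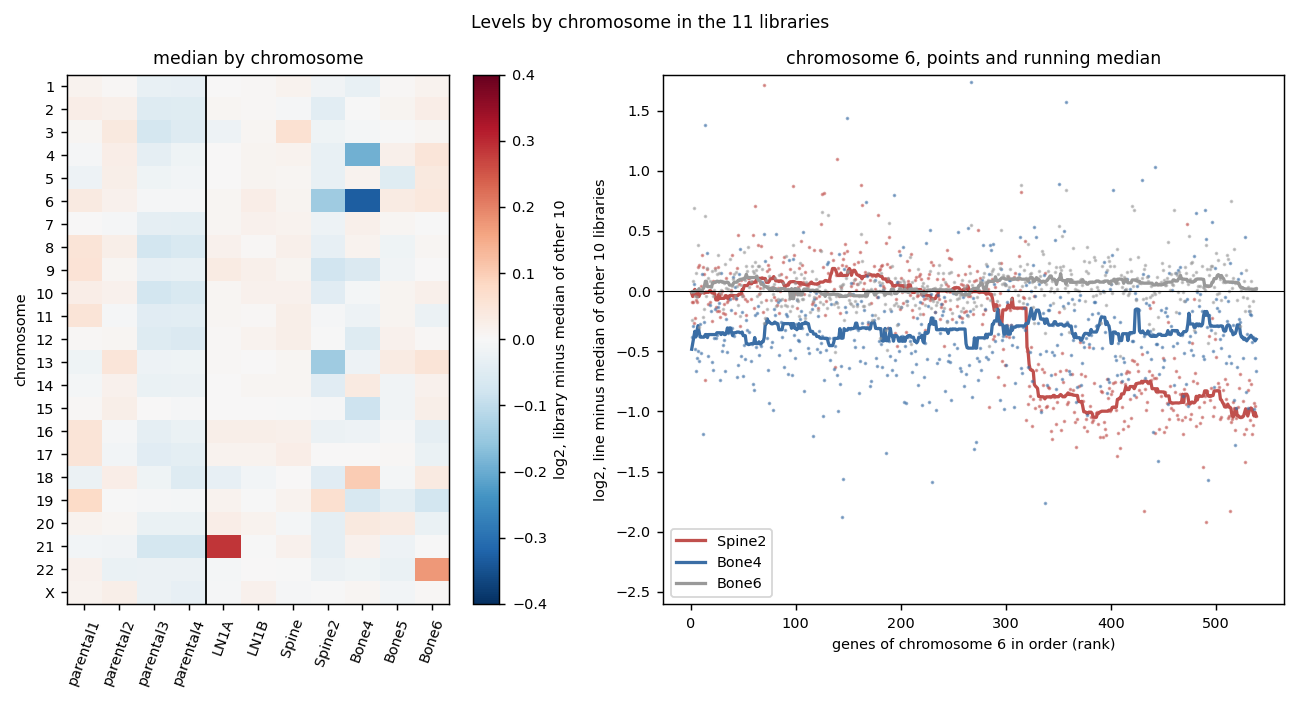
Left, median log2 difference of each library from the median of the other 10 by chromosome, for genes with a mean of at least 5 CPM; right, the same difference for each gene of chromosome 6 in gene order in Spine2, Bone4 and Bone6, with a running median over 25 genes and values beyond the axis left out. Spine2 falls to -0.90 over the last 220 genes, Bone4 lies at -0.33 over the whole chromosome, and LN1A stands at 0.29 on chromosome 21.

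The remaining lines carried single genes. LN1A had 2.08 CPM of QPCT, a glutaminyl cyclase, against 0.108 to 1.73 CPM in the other 10 libraries, and Bone5 had 0.633 CPM of CCDC180 against 1.55 to 3.46 CPM. Bone6 had 14.7 CPM of the aspartoacylase ASPA against 0.0303 to 1.07 CPM. Its lower gene, BLOC1S5-TXNDC5, is a read-through that shares reads with both of its parts, so its level is uncertain.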

How the data were processed

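RNA of RWPE-1 and BPH-1 cultures was sequenced as messenger RNA libraries, and 11 of 24 libraries enter the comparisons here. Per the labels, the authors used cutadapt, FastQC, STAR and RSEM with build hg38, versions not given in the sources used here, and deposited tables of expected counts per gene, which were rounded to whole numbers. Of 60448 symbols, 19216 were protein-coding by GENCODE (863 symbols of any type matched by an older name), and 13166 passed edgeR's filter by expression.

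Libraries were scaled by TMM over the 12 RWPE-1 libraries, which come from 2 tables. The paper gives a medium for RWPE-1 cells but does not name that of the metastasis-derived lines. edgeR 4.0.16 (R 4.3.3) fitted quasi-likelihood models with terms for count table and stage, and for single lines a further term for 1 line, with Benjamini-Hochberg adjustment. The common biological coefficient of variation was 20.8%. Levels are CPM, and log2 levels used a prior count of 2. Alternatives were limma 3.58.1, DESeq2 1.42.0, other scaling and filters, and leaving out each library. In simulated data of 13166 genes with known changes, the stage test recovered 84% of changes of log2 size 1 and 97% of size 2, and the single-line test 23% and 80%. The simulated libraries were independent, with no table effect and a spread set only by the level of each gene. These settings are simpler than the real libraries, so the shares do not show how many real changes were missed.

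Genes were named by rule: those passing with a mean of at least 1 CPM, up to 12 in each direction, filled by unadjusted p among genes with all 7 lines beyond the parental range; per line, the 2 largest rises and falls among carried genes with a highest level of at least 2 CPM; and list members a sentence is about. Genes outside the rule are said to be chosen after their values were seen, as were the remaining carried genes of Bone4 and Spine2. The members and gene lists were chosen with earlier results of these data known. The level of the overexpressed gene and of some other genes is not reported here. Totals of at least 33615679 counts per library leave counting error small except for genes under about 1 CPM.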

Additional observations from a re-analysis of the deposited data

Results flagged for a closer look

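For the named genes, 122 groups of 4 parental libraries or 7 lines were examined for a library far from the rest, and 10 such cases appeared, where chance gives about 1 in 20 groups. Parental 1 was the low library in 4 of them: 2.55 CPM of C14orf159 against 4.73 to 5.37 CPM, 900 CPM of VIM against 1160 to 1210 CPM, 22.7 CPM of TPM1 against 35.3 to 36.5 CPM, and 13.7 CPM of EMP3, a small membrane glycoprotein, against 24.8 to 25.9 CPM. Parental 2 was low for PVRL3, with 9.49 CPM against 14.2 to 15.1 CPM. Among the lines, Bone5 was high for VAX1 (6.39 CPM against 3.10 to 4.20 CPM), LN1B low for ACOT11 (4.68 CPM against 6.44 to 8.10 CPM), Bone4 low for DUSP6 (251 CPM against 338 to 393 CPM) and high for TNFRSF11B (2.32 CPM against 1.27 to 1.65 CPM), and Bone6 high for SNRPN (0.247 CPM against 0 to 0.0528 CPM). Of 4 chromosomes examined because 1 or 2 lines had a shift there, 3 had a line apart from the others, which that choice makes likely: Bone4 for chromosome 4 (-0.191 against -0.03 to 0.047 on the log2 scale), LN1A for chromosome 21 (0.287 against -0.037 to 0.016) and Bone6 for chromosome 22 (0.173 against -0.027 to 0).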

How the results depend on the processing

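No paired analysis was possible because the RWPE-1 labels give no replicate number that pairs a line with a parental library, so no replicate block could be fitted. The number of genes that differed between lines and parental libraries (14, with 11 higher and 3 lower) was 251 (130 and 121) with DESeq2, 22 with no filter on low counts (6 lower), 7 with at least 10 counts in every library (7 and 0), 24 with all genes of the tables (21 higher), 2 in the second table only (2 and 0, CRACR2A and DPYSL3, with 1204 genes at an unadjusted p under 0.05), and 5 (3 higher) without both parental 3 and parental 4, a setting chosen after seeing the data. All 14 stayed called with DESeq2. Leaving out 1 library gave 4 to 67 genes, with 2 to 32 higher and 2 to 35 lower: 4 without parental 3, 6 without LN1B, 7 without parental 1 or parental 4, 33 without Bone6 and 67 without Bone4. The cause was not tested.

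Genes above the parental range in all 7 lines (100) numbered 198 and those below (125) numbered 194 once the table term was removed from the log2 levels, with 9 above by 2-fold. Leaving out a parental library gave 127 to 389 above and 151 to 385 below, the highest without parental 1, and 4 to 5 and 4 to 7 by 2-fold; fewer libraries make the range narrower.

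Of the 190 calls in single lines, 168 were also made by limma voom, which made 250 in total, with 4 in LN1B and 3 in Bone5. With no table term LN1A had 0, Spine 1, Bone5 2 and Bone6 1, and with at least 10 counts in every library LN1A had 0 and Bone6 1. Leaving out each parental library in turn, chosen after seeing the data, gave 142 to 225 calls: 107 to 153 in Bone4, 33 to 65 in Spine2, 1 to 3 in Bone6, 0 to 2 in Bone5, 0 to 1 in Spine, 1 in LN1A and 0 in LN1B. Directions turned for some genes that did not pass: KRT5 (-0.639 to 0.757 with 1 library left out) and KRT14 (-0.444 to 0.355) turned to 0.757 and 0.355 in the second table only and without parental 1, and DUSP6 turned to -0.00834, MMP9 to 1.03 and MX1 to 2.91 without parental 3 and 4. Genes under about 1 CPM are limited by counts.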
